A study of Drosophila melanogaster with 17 samples.

Results

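The genes described here are 8 genes of the presynaptic terminal, Syn, Rab3, Rim, brp, nSyb, cpx, Snap25 and ChAT, in adult fly brains that lack a gene of the blood-brain barrier. They were taken by the gene symbol of the array's platform annotation with every probe set kept, which gave 14 of the 13290 probe sets of the deposited filtered table, and 8 of the 8938 genes that it names. Syn, Rab3, nSyb, Snap25 and ChAT had 1 probe set each, cpx had 2, Rim had 3 and brp had 4. The 14 were sought on the filtered table alone, among probe sets with a single symbol. Probe sets of these genes that its filter removed, if any, were not sought. The platform's gene IDs of the 8 genes were found in the RefSeq gene table under the same symbols.

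The study measured RNA of whole adult brains of Drosophila melanogaster on 17 Affymetrix arrays in 5 groups, with 4 brains of males and females on each array. C17 (3 arrays), a null mutant, lacks moody, which encodes a G protein-coupled receptor needed by the glia of the brain surface to seal the barrier, and PMdr65 (3 arrays), also a null mutant, lacks Mdr65, which encodes an ABC efflux transporter of these glia. WT_new (3 arrays) and WT_old (5 arrays) are Canton S wild type, and UAS_control (3 arrays) carries a UAS-Mdr65-RNAi construct with no driver named in the labels. WT_new was processed on another day than the mutants, WT_old was added against batch effects, and UAS_control was added as a background similar to that of the mutants. Each null allele was measured in 1 line whose background is not Canton S, so the allele and the line cannot be told apart, nor can mutant and processing day against WT_new. All flies were kept at 16 °C or room temperature, and the age of the adults is not given in the labels. All RNA was amplified before labelling. Whether replicate arrays stem from separate fly cultures is not stated in the labels, so each p-value reflects spread between arrays alone, which may be technical, and the number of arrays limits the precision.

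At a fly synapse, vesicles filled with transmitter are tethered, brought to the active zone, primed and fused. Synapsin (Syn) coats vesicles and holds them in the reserve pool, and Rab3 is the small GTPase of the vesicle membrane. Rim is an active zone scaffold that binds Rab3 in mammals, and bruchpilot (brp), of the ELKS/CAST family, builds the T-bar under which calcium channels gather. Neuronal synaptobrevin (nSyb) on the vesicle and Snap25 on the plasma membrane are SNARE proteins that drive fusion, and complexin (cpx) binds the assembled SNARE complex and restrains or promotes fusion. Choline acetyltransferase (ChAT) makes acetylcholine, the main fast excitatory transmitter of the fly brain.

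After RMA normalization of the arrays together, array medians lay between 7.86 and 7.99 on the log2 scale, and correlations between arrays of a group ran from 0.974 to 0.997. This normalization brings the medians together, so they do not measure RNA or array quality, which was not examined here. The targeted genes followed the labels, with moody at 2.10 to 2.30 in C17 and 9.65 to 11.4 elsewhere, and Mdr65 at 4.65 to 4.72 in PMdr65 and 9.35 to 11.2 elsewhere. Markers of tissue around the brain differed strongly between groups. The summed linear signal of 3 eye markers (Arr1, Arr2 and trp, of 7 listed) was 504, 885 and 9151 on the WT_new arrays and 4511 to 8525 in UAS_control, against 242 to 386 in WT_old, 204 to 330 in C17 and 275 to 450 in PMdr65. The sum of 5 of 6 fat body markers was 11470 to 27710 in WT_new and 9979 to 33280 in UAS_control, against 1859 to 2936 in WT_old, 6196 to 9647 in C17 and 6375 to 14830 in PMdr65. Of these 5, Yp1, Yp2 and Yp3 spanned log2 signals of 7.47 to 12.96, 6.70 to 13.36 and 5.75 to 13.35 over all arrays. Lsp2 spanned 3.39 to 9.02, and apolpp only 10.54 to 12.06. The sum of 4 of 7 muscle markers was 749 to 857 in WT_new and 984 to 4036 in UAS_control, above the 160 to 453 of the other groups. The sum of 4 of 5 haemocyte markers ran from 975 to 2349 over all arrays and was highest in UAS_control. The neuronal sum, over 8 of 8 markers, ran from 30290 to 34040 over all arrays, with WT_old (32720 to 34040) at the top and UAS_control (30290 to 31600) and WT_new (30390 to 31920) at the bottom. In PMdr65 against WT_old, 2 neuronal markers were called higher and 4 lower (limma, adjusted p under 0.05), or 75% beside 28.5% of all genes. In WT_old against WT_new, 4 were higher and 1 lower, or 62.5% beside 45%. Other comparisons of a mutant with a control had 12.5% to 37.5%, beside 19.7% to 43.5%. The glial sum, over 7 of 8 markers, ran from 16170 to 20170, with PMdr65 (19370 to 20170) above all WT_old arrays (16170 to 19210). No marker was listed at 0. In bulk samples, fewer cells of a type and less RNA per cell cannot be told apart.

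**Figure D1:**
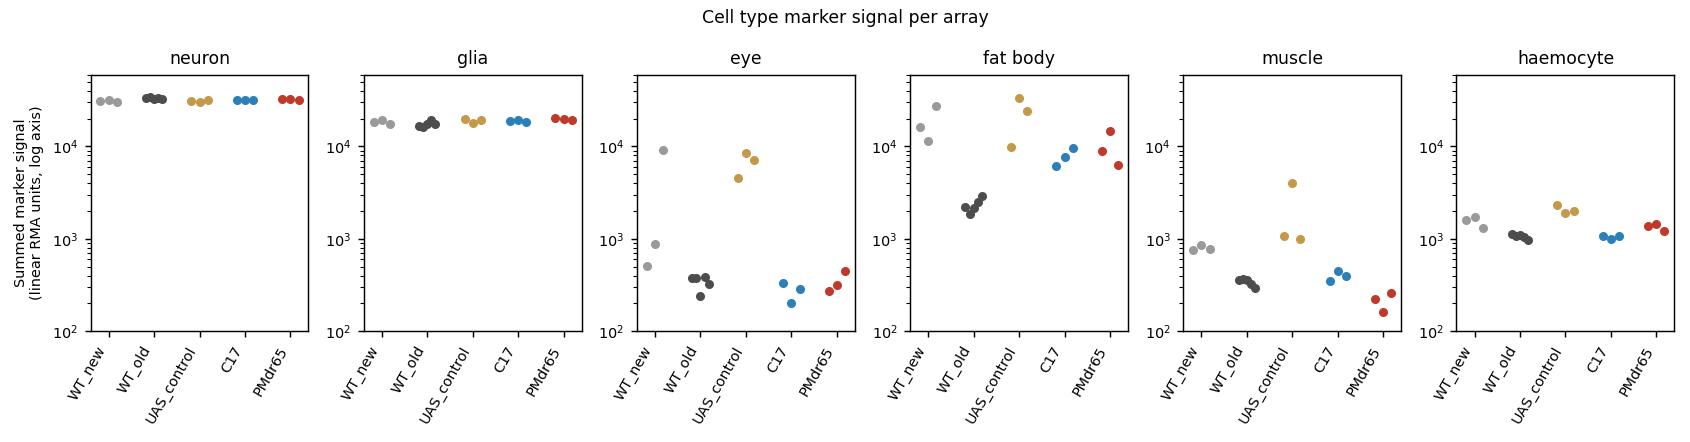
Summed signal of the marker genes of 6 cell types on each array, in linear RMA units on a log axis, with 1 point per array. Neuronal sums were highest in WT_old and lowest in UAS_control and WT_new, and glial sums were higher on all PMdr65 arrays than on all WT_old arrays. Eye and muscle sums were highest on WT_new and UAS_control arrays. Fat body sums were lowest in WT_old, and PMdr65 overlapped WT_new and UAS_control.

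All 14 probe sets were bright, with log2 RMA signals from 8.77 to 13.79 where the arrays as a whole spanned 1.92 to 14.32. They were also steadier than most: the residual SD of a member within its group had a median of 0.07 and a range of 0.03 to 0.15, against a median of 0.13 over all probe sets. Brightness depends on the probes, so levels are compared here between groups and not between probe sets. Over the 5 groups, 9 of the 14 probe sets (64.3%) differed (limma F test, adjusted p under 0.05), beside 69.3% of all probe sets. The 5 that did not pass were nSyb (adjusted p = 0.0804), Snap25 (0.158), both cpx probe sets (0.1 and 0.137) and brp 1636216_at (0.108). The widest range of group means was that of Syn at 0.70, followed by Rim 1638777_at at 0.66, and the narrowest that of nSyb at 0.12. When the groups were put in order for each probe set, 4 of the 56 steps between neighbours passed the limma test, namely C17 over WT_old and WT_old over UAS_control for Syn, and WT_old over WT_new for Rim 1639490_at and for Rim 1638777_at. The other 52 steps did not pass, and the share of passing steps over all probe sets was not counted. Neighbours in such an order have the smallest gaps by construction, so this count does not tell how far the groups differ.

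**Figure D2:**
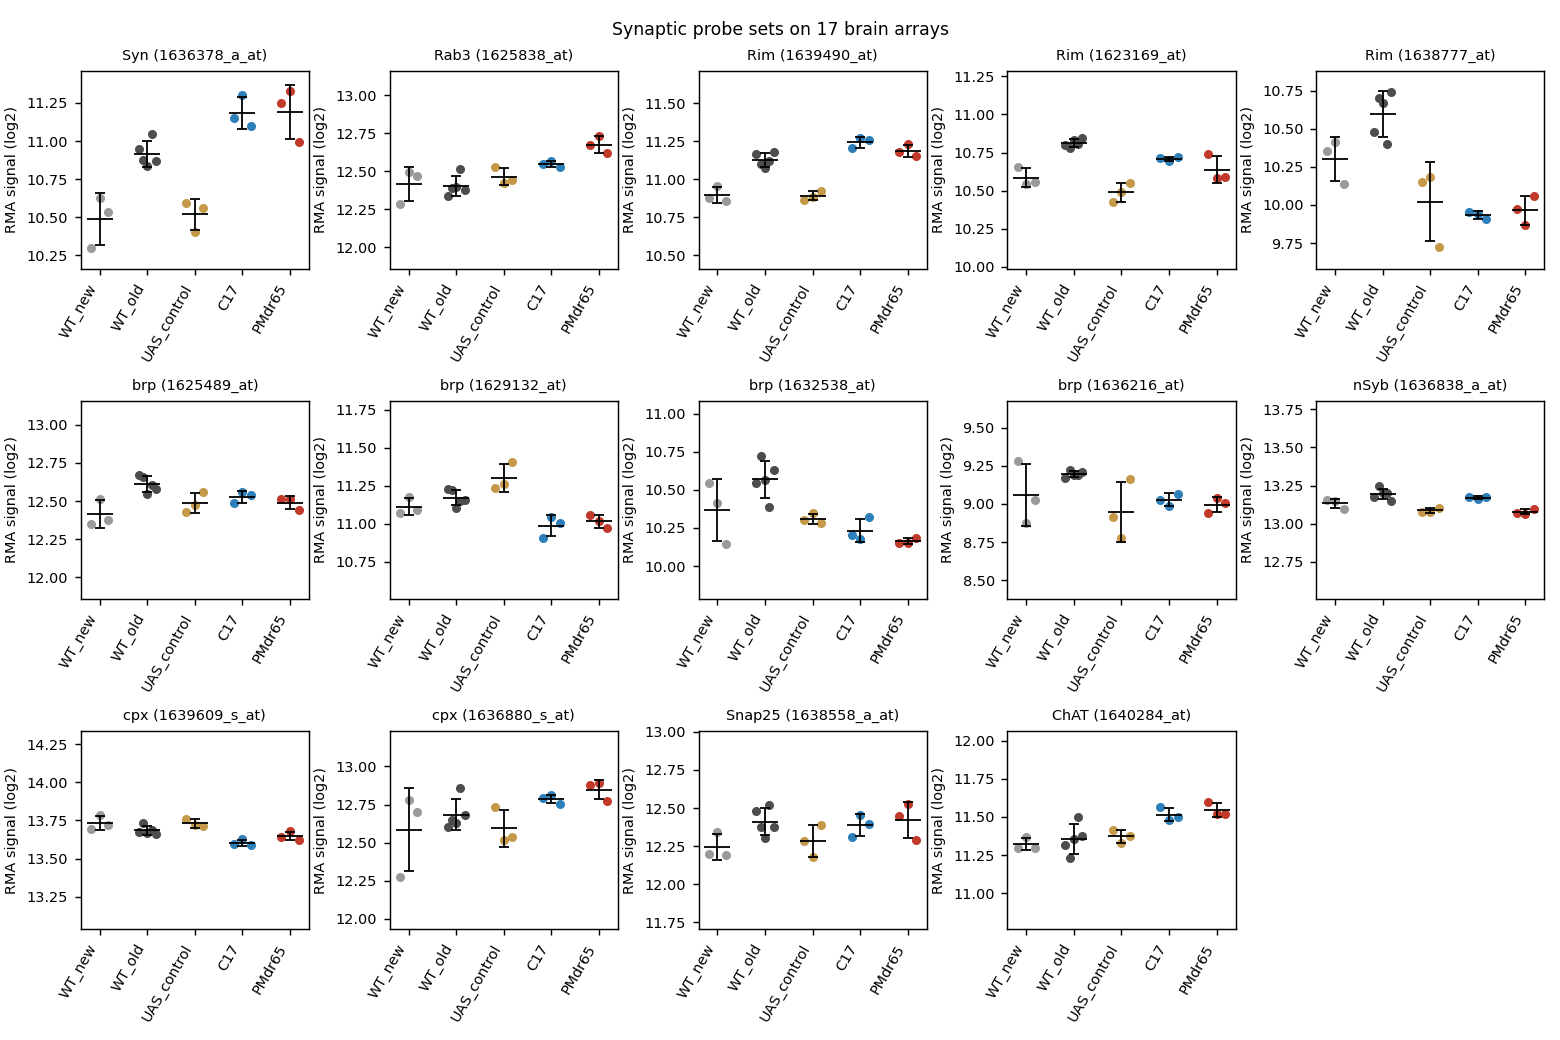
Log2 RMA signal of the 14 probe sets on each array, by group, with 1 point per array and bars at the group mean ± SD (n = 3, or 5 for WT_old); panels have different ranges of equal width. Syn was high in both mutants and low in WT_new and UAS_control, Rab3 and ChAT were highest in PMdr65, and nSyb and cpx 1639609_s_at moved little.

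Synapsin was the member with the largest rise, and the only one of the 14 probe sets called higher by limma in both mutants against each of the 3 control groups. Its log2 signals were 11.15, 11.30 and 11.10 in C17 and 11.25, 11.33 and 10.99 in PMdr65. The WT_old arrays read 10.95, 10.88, 10.84, 11.05 and 10.87, the WT_new arrays 10.30, 10.63 and 10.54, and the UAS_control arrays 10.60, 10.40 and 10.56. All C17 arrays were above all 11 control arrays, while the lowest PMdr65 array was below the highest WT_old array. Relative to WT_new, Syn was higher by 0.70 ± 0.10 (log2, SE) in C17, a 1.62-fold difference, and by 0.70 ± 0.10 in PMdr65, 1.63-fold (limma, adjusted p = 8.7e-05 and 7.52e-05). Relative to UAS_control the differences were 0.66 and 0.67 (adjusted p = 0.000134 and 0.00016). They were smaller against WT_old, at 0.27 ± 0.09 in each mutant, 1.21-fold (adjusted p = 0.0498 and 0.0344). The controls themselves were not level, since Syn was 0.43 ± 0.09 higher in WT_old than in WT_new and 0.40 ± 0.09 lower in UAS_control than in WT_old (adjusted p = 0.0016 and 0.00197). WT_new and UAS_control, the groups with the lowest Syn, were also those with the highest eye and muscle marker sums. On the 3 WT_new arrays, Syn of 10.30, 10.63 and 10.54 stood beside eye sums of 504, 885 and 9151. The part of these tissues in the Syn levels was not tested. The calls against WT_old were the least secure. In C17 the adjusted p was 0.0744 on the unfiltered table, 0.0552 after a further quantile normalization and 0.0877 after centring the arrays, and Syn was no longer called against all 3 controls when any 1 of 11 of the 17 arrays was left out. In PMdr65 it was 0.0511 on the unfiltered table, and 0.0638 to 0.179 without PMdr65 array 1 or 2 or WT_old array 2, 3 or 5.

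Rab3 and ChAT were the other probe sets called higher by limma in PMdr65 against each control group. Rab3 read 12.67, 12.73 and 12.62 in PMdr65, above all 11 control arrays. It was 12.29, 12.49 and 12.47 in WT_new, 12.34, 12.39, 12.39, 12.51 and 12.37 in WT_old, and 12.53, 12.42 and 12.44 in UAS_control. The rise was 0.26 over WT_new, 0.27 over WT_old and 0.21 over UAS_control, or 1.16- to 1.21-fold (SE 0.06 to 0.07; limma, adjusted p = 0.00573, 0.00286 and 0.0202). The call against UAS_control was lost with only the groups compared in the fit (adjusted p = 0.0681) and without PMdr65 array 2 (0.0799) or UAS_control array 2 (0.0664). In C17 the arrays read 12.55, 12.57 and 12.53, close together and also just above all control arrays, but the differences of 0.13, 0.15 and 0.08 did not pass the test (adjusted p = 0.12, 0.096 and 0.323). Rab3 was not called between C17 and PMdr65 (limma, -0.13, 95% interval -0.27 to 0.01, adjusted p = 0.362), although all PMdr65 arrays lay above all C17 arrays.

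ChAT read 11.60, 11.52 and 11.52 in PMdr65, again above all 11 control arrays. The controls were at 11.30, 11.37 and 11.30 in WT_new, 11.32, 11.23, 11.36, 11.50 and 11.38 in WT_old, and 11.42, 11.33 and 11.37 in UAS_control. The differences were 0.22, 0.19 and 0.17, or 1.13- to 1.17-fold (SE 0.06 to 0.07; limma, adjusted p = 0.0137, 0.0251 and 0.0487). The call against UAS_control was lost on the unfiltered table (adjusted p = 0.0742), after quantile normalization (0.131) and with only the groups compared in the fit (0.103), and without most single arrays. That against WT_new was lost after quantile normalization (0.0791), after centring (0.0541) and without PMdr65 array 1 (0.0572). That against WT_old was lost with only the groups compared (0.0674) and without any 1 PMdr65 array or WT_old array 2 (0.0519 to 0.109). In C17, at 11.56, 11.48 and 11.50, ChAT rose over WT_new by 0.19 (adjusted p = 0.0283, but 0.127 after quantile normalization, 0.148 after centring, and 0.0574 to 0.0995 without C17 array 1 or 3 or WT_new array 1 or 3), and the differences of 0.16 from WT_old and 0.14 from UAS_control did not pass (adjusted p = 0.0698 and 0.0915). VAChT, the vesicular acetylcholine transporter, is encoded within the ChAT locus and shares its first exon. It did not follow ChAT in PMdr65, where it was lower than in WT_new by 0.15 and than in WT_old by 0.25 (adjusted p = 0.0451 and 0.00171) and 0.05 above UAS_control (adjusted p = 0.495). In C17 it was higher than in WT_new by 0.22 and than in UAS_control by 0.42 (adjusted p = 0.006 and 4.41e-05), and 0.12 above WT_old (adjusted p = 0.116). The difference between the mutants in VAChT, 0.36 higher in C17, passed the test (adjusted p = 0.000567), while that in ChAT was -0.03 (95% interval -0.17 to 0.11, adjusted p = 0.904).

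Of the 3 Rim probe sets, one was higher and another lower in the mutants than in WT_new. Rim 1639490_at read 11.20, 11.27 and 11.26 in C17 and 11.18, 11.23 and 11.15 in PMdr65. It read 10.88, 10.95 and 10.86 in WT_new, 10.87, 10.89 and 10.92 in UAS_control, and 11.17, 11.10, 11.07, 11.12 and 11.18 in WT_old. Both mutants were thus above WT_new and UAS_control with no overlap, and PMdr65 overlapped WT_old. C17 was higher than WT_new by 0.35 ± 0.05 and than UAS_control by 0.35 ± 0.05, and PMdr65 by 0.29 in both cases (limma, adjusted p = 0.000117, 0.000112, 0.000476 and 0.000557). Against WT_old the differences were 0.12 and 0.06 and did not pass (adjusted p = 0.0999 and 0.386), and WT_old itself was 0.23 above WT_new (adjusted p = 0.00113). This probe set therefore had the same low groups as Syn, which are those with high eye and muscle marker sums. The part of these tissues in its levels was not tested.

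Rim 1638777_at had another order. Its signals were 9.96, 9.94 and 9.91 in C17, 9.97, 9.87 and 10.06 in PMdr65, and 10.15, 10.19 and 9.72 in UAS_control. They were 10.35, 10.41 and 10.14 in WT_new and 10.48, 10.70, 10.67, 10.40 and 10.74 in WT_old. Both mutants lay below all Canton S arrays, and the UAS_control arrays spread from below the mutants to above them. The mutants were lower than WT_new by 0.37 and 0.34 on the log2 scale in C17 and PMdr65 (limma, adjusted p = 0.0242 and 0.0355) and lower than WT_old by 0.66 and 0.63 (adjusted p = 0.00044 and 0.000472), a fold of 0.63 and 0.65. The calls against WT_new were lost in C17 without any 1 C17 array or WT_new array 1 or 2 (adjusted p = 0.0511 to 0.084) and in PMdr65 without PMdr65 array 1 or 2 or WT_new array 1 or 2 (0.0755 to 0.117). Neither differed from UAS_control beyond the spread (-0.09, 95% interval -0.34 to 0.17, and -0.06, -0.31 to 0.20, adjusted p = 0.591 and 0.741). UAS_control was itself 0.57 below WT_old (adjusted p = 0.00041). The third Rim probe set, 1623169_at, was highest in WT_old (10.81 ± 0.03, SD, n = 5) and lowest in UAS_control (10.49 ± 0.06, n = 3), with C17 at 10.71 ± 0.01, PMdr65 at 10.64 ± 0.09 and WT_new at 10.59 ± 0.06. Its mutant calls were C17 over UAS_control by 0.22 (adjusted p = 0.00695) and PMdr65 under WT_old by -0.18 (adjusted p = 0.0187).

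Bruchpilot was not higher in either mutant on any of its 4 probe sets by the test, and 2 of them were lower against some controls. The probe set 1629132_at read 10.91, 11.04 and 11.01 in C17 and 11.06, 11.02 and 10.98 in PMdr65. It read 11.07, 11.18 and 11.09 in WT_new, 11.23, 11.22, 11.11, 11.15 and 11.16 in WT_old, and 11.24, 11.26 and 11.40 in UAS_control. All 6 mutant arrays lay below all 11 control arrays, though by a small margin to WT_new. The difference was -0.31 in C17 and -0.28 in PMdr65 against UAS_control (adjusted p = 0.00107 and 0.00258) and -0.19 and -0.16 against WT_old (adjusted p = 0.0292 and 0.0485), while -0.13 and -0.10 against WT_new did not pass (adjusted p = 0.12 and 0.234). After a further quantile normalization of the arrays, these last differences were -0.20 and -0.18 and passed too (adjusted p = 0.014 and 0.022). The call of PMdr65 against WT_old was lost on the unfiltered table (adjusted p = 0.0815), after centring (0.116), with only the groups compared (0.0637) and without any 1 of most arrays. That of C17 against WT_old was lost without C17 array 1 or 3 or WT_old array 1 or 2 (0.0543 to 0.155). The probe set 1632538_at was lower than WT_old by 0.34 in C17 and by 0.41 in PMdr65 (adjusted p = 0.0106 and 0.00213), the C17 call being lost without C17 array 2 (0.057), with means of 10.23 ± 0.08 and 10.16 ± 0.02 against 10.57 ± 0.12 in WT_old, 10.37 ± 0.20 in WT_new and 10.31 ± 0.03 in UAS_control. The brightest brp probe set, 1625489_at, ranged over group means from 12.41 (WT_new) to 12.61 (WT_old), and its 6 differences between a mutant and a control, from -0.12 to 0.12, did not pass. The dimmest, 1636216_at, had group means of 8.95 to 9.20 and differences of -0.20 to 0.08 that did not pass either.

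For the SNARE proteins and complexin, 3 of the 24 differences between a mutant and a control passed the test, all of them lower. In the same 6 contrasts, 19.7% to 43.2% of all probe sets were called, and 9.32% to 17.6% were called lower. nSyb read 13.18, 13.16 and 13.17 in C17 and 13.07, 13.06 and 13.095 in PMdr65, against 13.08 to 13.11 in UAS_control, 13.10 to 13.15 in WT_new and 13.15 to 13.25 in WT_old. Its 1 call in a mutant was in PMdr65, 0.12 below WT_old or 0.92-fold (limma, adjusted p = 0.0473). It was lost on the unfiltered table (adjusted p = 0.0826), after centring (0.187), with only the groups compared (0.118) and without any 1 of most arrays. In the controls, UAS_control was also below WT_old, by -0.11 (adjusted p = 0.0411). Snap25 had no call in either mutant. Its group means were 12.39 in C17, 12.42 in PMdr65, 12.25 in WT_new, 12.41 in WT_old and 12.28 in UAS_control, and the 95% intervals of its 6 differences lay between -0.18 and 0.35.

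For cpx, the probe set 1639609_s_at was lowest in C17, at 13.59, 13.63 and 13.59, below all 11 control arrays (13.66 to 13.79). The difference was -0.13 against WT_new and -0.13 against UAS_control (limma, adjusted p = 0.0441 and 0.0458), a fold of 0.91 and 0.92, and -0.08 against WT_old did not pass (adjusted p = 0.208). Both calls were lost on the unfiltered table (adjusted p = 0.072 and 0.0914), with only the groups compared (0.128 and 0.135) and without any 1 of most arrays. PMdr65 was at 13.64, 13.68 and 13.62, and its differences of -0.09, -0.04 and -0.08 did not pass. The other cpx probe set, 1636880_s_at, had higher means in both mutants (12.79 in C17 and 12.85 in PMdr65) than in the controls (12.59 to 12.68), but its WT_new arrays spread from 12.27 to 12.78 and none of the 6 differences, 0.10 to 0.26, passed (lowest adjusted p = 0.066).

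**Figure D3:**
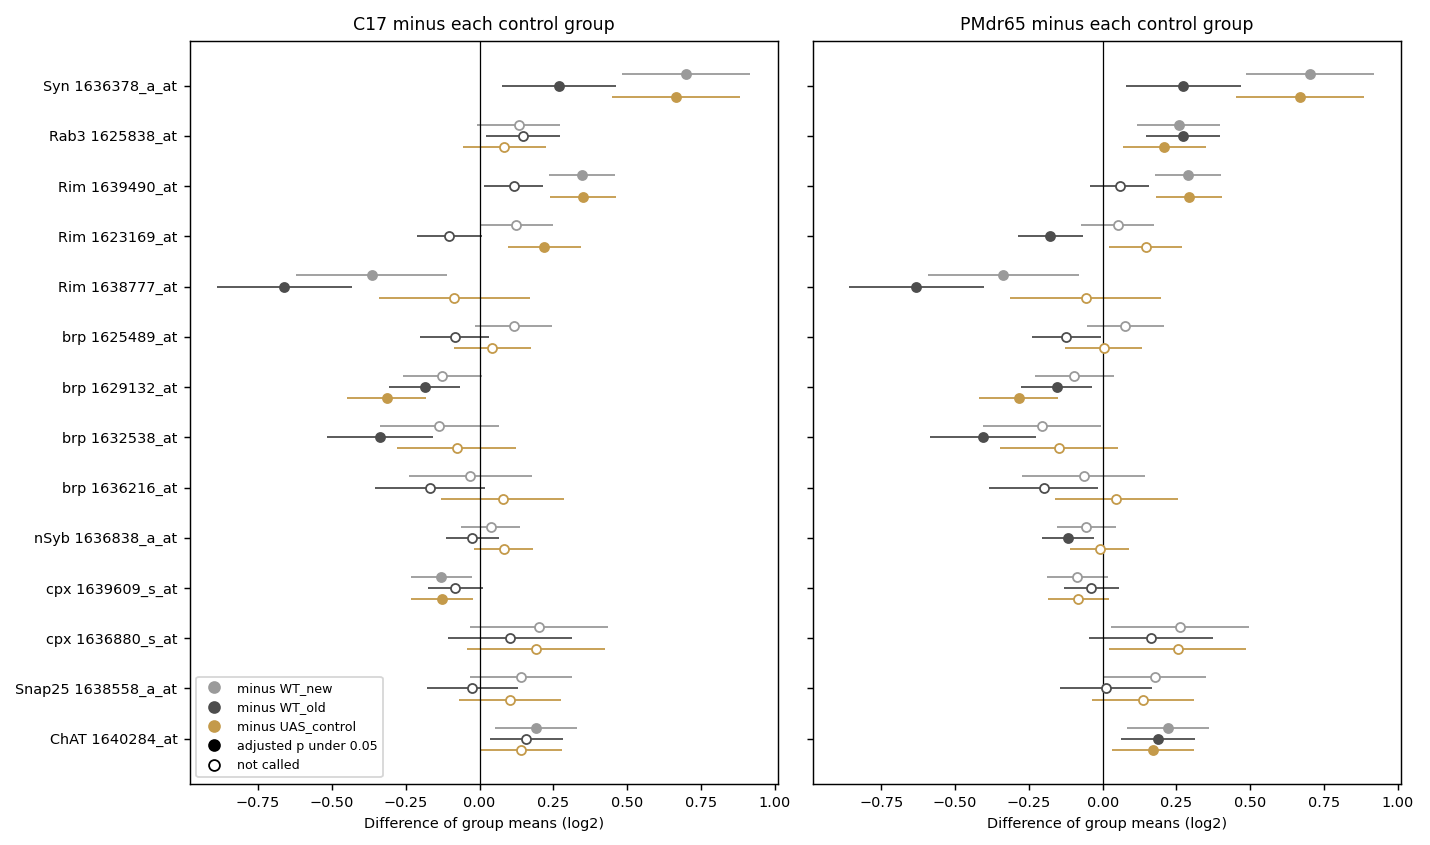
Difference of group means, in log2, for each probe set in C17 (left) and PMdr65 (right) minus WT_new, WT_old and UAS_control; bars are 95% intervals of the limma fit, filled points passed at an adjusted p under 0.05 and open points did not. Syn lies right of 0 against all 3 controls in both mutants, while Rim has probe sets on both sides of 0.

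Counted over the 14 probe sets, the share called was close to that of the whole array in most contrasts. C17 minus WT_new had 5 calls (35.7%), 3 higher and 2 lower, beside 41% of all 13290 probe sets (25.2% higher and 15.8% lower). C17 minus UAS_control had 5, again 3 higher and 2 lower, beside 43.2% (26.2% and 16.9%). C17 minus WT_old had 4, of which 1 was higher and 3 lower, beside 19.7% (10.3% and 9.32%). PMdr65 minus WT_new had 5, of which 4 were higher and 1 lower, beside 41.6% (23.9% and 17.6%), and PMdr65 minus UAS_control had the same numbers beside 39.6% (23% and 16.5%). The highest share was that of PMdr65 minus WT_old, with 8 calls (57.1%), 3 higher and 5 lower, beside 28.9% (13.3% and 15.6%). The 5 lower were Rim 1623169_at and 1638777_at, brp 1629132_at and 1632538_at, and nSyb, and this count fell to 3 without PMdr65 array 2 and to 4 without PMdr65 array 1 or 3 or WT_old array 2. The 5 calls of C17 minus WT_new became 2 without C17 array 1 or 3 and 3 without C17 array 2 or WT_new array 1, and the 4 of C17 minus WT_old became 2 without any 1 of the C17 arrays or WT_old arrays 1 or 2. The 5 of PMdr65 minus WT_new became 3 without PMdr65 array 1, and those of PMdr65 minus UAS_control 3 without PMdr65 array 2 or UAS_control array 2. Median differences of the members were 0.12 and 0.06 against WT_new in C17 and PMdr65, -0.05 and -0.08 against WT_old, and 0.08 and 0.09 against UAS_control. The same medians over all probe sets were 0.04 and 0.02, -0.01 and -0.03, and 0.06 and 0.05.

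Against all 3 control groups in 1 direction, C17 had 1 call, Syn (7.14%, beside 6.46% of all probe sets, 4.42% higher and 2.03% lower), and PMdr65 had 3, Syn, Rab3 and ChAT, all higher (21.4%, beside 8.34%, 5.53% higher and 2.81% lower). The PMdr65 count was 0 without PMdr65 array 2, and 1 without PMdr65 array 1, UAS_control array 2 or WT_old array 2, 3 or 5. Syn was the probe set called in both mutants, beside 3.21% of all (2.23% higher and 0.978% lower). By the arrays alone, all 3 C17 arrays lay beyond all 11 control arrays for 5 of the 14 probe sets (35.7%), higher for Syn, Rab3 and Rim 1639490_at and lower for brp 1629132_at and cpx 1639609_s_at, beside 10.4% of all probe sets (6.95% higher and 3.49% lower). All 3 PMdr65 arrays did so for 3 (21.4%), higher for Rab3 and ChAT and lower for brp 1629132_at, beside 11.3% (7.04% and 4.26%). The contrasts of the mutants share their control arrays, so that the calls in C17 and PMdr65 are not independent of each other.

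Between the mutants no member was called, which for 14 probe sets is near the share called over all probe sets. In C17 minus PMdr65, 0 of the 14 probe sets were called by limma, and 0 had an unadjusted p under 0.05, beside 7.05% of all probe sets called (3.98% higher and 3.07% lower) and 17.5% at an unadjusted p under 0.05. The differences lay between -0.13 (Rab3) and 0.09 (nSyb), and the 95% intervals of all 14 lay between -0.29 and 0.27. Rab3 arrays read 12.53 to 12.57 in C17 and 12.62 to 12.73 in PMdr65, without overlap. Those of nSyb read 13.16 to 13.18 in C17 and 13.06 to 13.095 in PMdr65, also without overlap. How many of all probe sets had no overlap between the mutants was not counted. Differences between WT_old and the other control groups were larger. WT_old minus WT_new had 5 calls, all higher in WT_old, beside 45.4% of all (28.3% higher and 17.1% lower). UAS_control minus WT_old had 7, all lower in UAS_control (50%), beside 55.4% of all (22.2% higher and 33.2% lower). UAS_control minus WT_new had 0 calls by limma (2 at an unadjusted p under 0.05) beside 15.2% of all (7.51% higher and 7.65% lower), and became 1 in 3 of the alternative settings. Syn and all 3 Rim probe sets were called in both WT_old minus WT_new and UAS_control minus WT_old, with WT_old as the high group. WT_old had the lowest fat body marker sums, and its neuronal sums (32720 to 34040) were above those of WT_new and UAS_control. The part of either in these levels was not tested.

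Probe sets of one gene disagreed most for Rim. In C17 minus WT_new and in PMdr65 minus WT_new, Rim 1639490_at was called higher and Rim 1638777_at lower, which placed Rim among the 6.07% and 6.43% of the 840 genes with several probe sets that had calls in opposite directions. No other member gene had opposite calls in any contrast. The difference of these probe sets within each array was 1.25 to 1.35 in C17 and 1.10 to 1.36 in PMdr65, against 0.40 to 1.20 on the control arrays. In C17 it exceeded the controls by 0.67 (exact two-sided permutation test over the 364 ways to choose 3 of 14 arrays, p = 0.00275, the smallest that these can give, adjusted p = 0.0393 over 4590 tests). By group, the excess was 0.71 over WT_new, 0.78 over WT_old and 0.44 over UAS_control. The test treats the 11 control arrays as exchangeable, although the control groups differed on Rim. Rim 1639490_at minus Rim 1623169_at behaved alike in C17, at 0.49 to 0.57 against 0.22 to 0.44 in the controls, an excess of 0.20 (exact permutation test, adjusted p = 0.0393). These 2 of the 10 pairs of member probe sets, which share Rim 1639490_at, passed in C17, beside 5.93% of all 2295 pairs. Without UAS_control array 3 the count was 5, and without WT_new array 1 or UAS_control array 1 it was 3. Without a mutant array, or without WT_new array 2, 0 of all pairs passed. Leaving out WT_new array 2 keeps as many arrays as leaving out any other control array, where the count was above 0. At the smallest p, the adjusted p depends on how many pairs reach it, so the calls of these 2 Rim pairs are not secure. In PMdr65 the same pairs had an excess of 0.58 and 0.21 (exact permutation test, adjusted p = 0.0584 for each), and 0 of 10 pairs passed, beside 8.06% of all, although 6 of 10 had an unadjusted p under 0.05 in each mutant.

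The highest control value of the first Rim pair, 1.20, was UAS_control array 3, on which Rim 1638777_at read 9.72. Across the 17 arrays, the correlation of Rim 1639490_at with Rim 1638777_at was -0.10, and that of each with Rim 1623169_at was 0.63 and 0.52. The cpx probe sets also ran apart (r = -0.27), with 1639609_s_at minus 1636880_s_at at 0.80 to 0.83 in C17 and 0.76 to 0.85 in PMdr65 against 0.83 to 1.42 in the controls. This shift of -0.26 in C17 and -0.28 in PMdr65 did not pass after adjustment (exact permutation test, adjusted p = 0.0885 and 0.0752). The 6 pairs of brp correlated between 0.06 and 0.59, and none passed in either mutant. Which transcripts of Rim, brp and cpx each probe set reads was not analysed here, and the arrays share their normalization, so these correlations are descriptions.

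**Figure D4:**
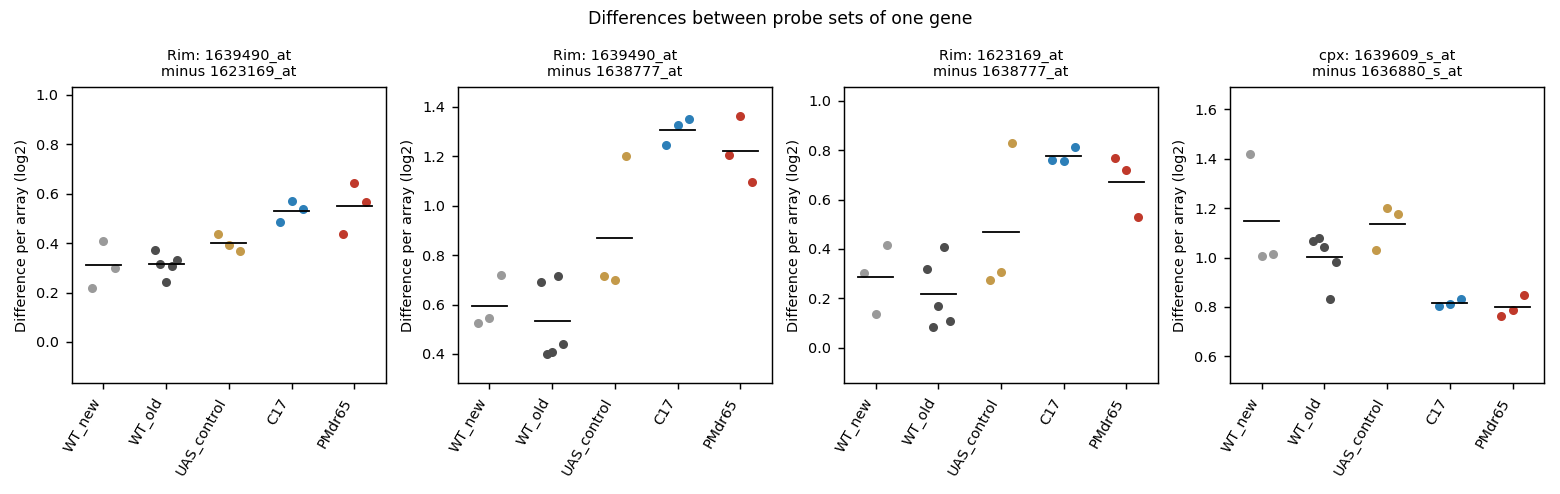
Difference in log2 signal between 2 probe sets of one gene on each array, for the 3 Rim pairs and the cpx pair, with 1 point per array and bars at the group mean. The pair of Rim 1639490_at and 1638777_at lies between 1.10 and 1.36 on the 6 mutant arrays and at or below 0.72 on all control arrays but UAS_control array 3, and the cpx pair is lowest in the mutants.

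Other presynaptic genes were counted on 4 lists that exclude the 8 members, with 1 probe set per gene. The shares of all genes are given here once for each contrast and serve the 4 lists. Of 13 active zone scaffold and channel genes measured, C17 had 8 called higher and 0 lower against WT_new (beside 42% of all 8938 genes, 24.1% higher and 17.9% lower), 3 and 1 against WT_old (beside 11.6% and 8.03%), and 10 and 0 against UAS_control (beside 23.2% and 20.4%). In PMdr65 the counts were 7 higher and 2 lower (beside 23.6% and 19.6%), 3 and 3 (beside 15.3% and 13.2%), and 8 and 0 (beside 21.1% and 20%). The list's median was 0.36 and 0.29 above WT_new in C17 and PMdr65, where all genes had 0.02 and 0.01, but 0.04 and -0.05 against WT_old. The controls differed on this list as well, with 11 of 13 genes higher in WT_old than in WT_new, beside 24.1% of all genes. Lar, the receptor tyrosine phosphatase that organises synapses together with Liprin-alpha, rose in C17 by 0.79, 0.22 and 0.46 over WT_new, WT_old and UAS_control (limma, highest adjusted p = 0.0307) and in PMdr65 by 0.77, 0.20 and 0.43 (highest adjusted p = 0.0417). Liprin-alpha, an active zone scaffold, rose over WT_new by 0.54 and 0.45 and over UAS_control by 0.57 and 0.48 in C17 and PMdr65 (highest adjusted p = 8.15e-05), and was 0.04 and -0.05 from WT_old (adjusted p = 0.738 and 0.569).

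The list's largest named rise was that of spin, by 1.01, 0.66 and 0.62 in C17 and 1.04, 0.69 and 0.66 in PMdr65 (highest adjusted p = 0.000105); spin encodes a carrier of late endosomes and lysosomes whose loss overgrows synapses, and it is not a part of the active zone. Arl8, a small GTPase of lysosomes that also drives axonal transport of presynaptic cargo, went opposite ways. It rose in C17 by 0.36, 0.19 and 0.59 (highest adjusted p = 0.0449), and in PMdr65 it was lower than WT_new by 0.36 and than WT_old by 0.53 (adjusted p = 0.000789 and 1.65e-05), with -0.13 against UAS_control (adjusted p = 0.154). Its difference between the mutants, 0.72 higher in C17, passed (adjusted p = 6.32e-06), beside 6.95% of all genes in that contrast.

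Release machinery genes, 12 of 18 measured, were called 4 times higher and 0 lower in C17 against WT_new, 0 and 0 against WT_old, and 3 and 0 against UAS_control. In PMdr65 the counts were 7 and 0, 1 and 1, and 5 and 0. The higher shares in C17, 33.3% against WT_new and 25% against UAS_control, were near those of all genes (24.1% and 23.2%), while those in PMdr65, 58.3% and 41.7%, stood beside 23.6% and 21.1%. Sytbeta, a synaptotagmin, rose by 0.59 and 0.49 over WT_new and 0.45 and 0.35 over UAS_control in C17 and PMdr65 (highest adjusted p = 0.00233), and Sytalpha, another, by 0.42 and 0.37, and 0.46 and 0.42 (highest adjusted p = 0.0144). The priming factor unc-13 rose by 0.24 and 0.26 over WT_new and 0.28 and 0.30 over UAS_control (highest adjusted p = 0.0124), and Scamp, a secretory carrier membrane protein, rose over WT_new by 0.63 and 0.83 (adjusted p = 0.0114 and 0.00193). None of these 4 differed from WT_old beyond the spread in either mutant (lowest adjusted p = 0.365), and Scamp did not differ from UAS_control either (0.18 and 0.38, adjusted p = 0.451 and 0.113). All 4 were also higher in WT_old than in WT_new, by 0.20 to 0.62 (limma, highest adjusted p = 0.022).

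Vesicle recycling genes, 13 of 18 measured, had calls both ways, with 3 higher and 3 lower than in WT_new in C17 and the same numbers in PMdr65, beside 24.1% and 17.9% of all genes in C17 and 23.6% and 19.6% in PMdr65. Against WT_old there were 3 higher and 0 lower in C17 and 5 and 1 in PMdr65, beside 11.6% and 8.03%, and 15.3% and 13.2%. Against UAS_control there were 5 and 4, and 5 and 3, beside 23.2% and 20.4%, and 21.1% and 20%. AP-2alpha, the large subunit of the clathrin adaptor at the plasma membrane, rose over all controls, by 0.28 to 0.36 in C17 and 0.32 to 0.40 in PMdr65 (highest adjusted p = 0.000637). Its small partner AP-2sigma was lower than in WT_new by 0.62 and 0.50 and than in UAS_control by 0.48 and 0.36 (highest adjusted p = 0.00152), but not lower than in WT_old, where C17 was at 0.11 (adjusted p = 0.275) and PMdr65 higher by 0.23 (adjusted p = 0.0168). The controls differed on AP-2sigma as well, with WT_old 0.73 below WT_new and UAS_control 0.59 above WT_old (limma, adjusted p = 3.23e-06 and 5.11e-06). Synj, the phosphoinositide phosphatase synaptojanin that uncoats endocytosed vesicles, was lower than in WT_new by 0.19 and 0.20 and than in UAS_control by 0.36 and 0.37 (highest adjusted p = 0.011), with -0.08 and -0.09 against WT_old (adjusted p = 0.31 and 0.214). The clathrin assembly protein lap was higher than in UAS_control by 0.79 and 0.58 (highest adjusted p = 0.000191), and its 1 other call in a mutant was PMdr65 under WT_old, by -0.23 (adjusted p = 0.046). UAS_control itself was low for lap, at -0.69 against WT_new and -0.80 against WT_old (limma, adjusted p = 9.45e-05 and 1.83e-06).

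Genes of transmitter synthesis and loading, 16 of 18 measured, had 5 higher in C17 against each control group, with 1 lower against WT_new, where 24.1%, 11.6% and 23.2% of all genes were higher than in WT_new, WT_old and UAS_control. In PMdr65 they had 3 higher and 2 lower, 5 and 1, and 4 and 0, against WT_new, WT_old and UAS_control, where 23.6%, 15.3% and 21.1% of all genes were higher. Beside VAChT, DAT, the dopamine transporter, rose in PMdr65 by 0.47, 0.20 and 0.35 (highest adjusted p = 0.0319) and in C17 by 0.45 over WT_new and 0.33 over UAS_control (adjusted p = 0.000229 and 0.00225), with 0.18 over WT_old (adjusted p = 0.067). The tyrosine hydroxylase ple, which starts dopamine synthesis, rose over WT_old by 0.47 in C17 and 0.30 in PMdr65 (adjusted p = 0.000158 and 0.00382) and over WT_new in C17 by 0.28 (adjusted p = 0.00798). Its differences of 0.11 in PMdr65 from WT_new and of 0.12 and -0.05 from UAS_control in C17 and PMdr65 did not pass (adjusted p = 0.244, 0.222 and 0.63). Acetylcholinesterase, Ace, which breaks down the product of ChAT, rose over WT_new by 0.24 and 0.40 and over UAS_control by 0.20 and 0.36 (highest adjusted p = 0.0311) and was -0.04 and 0.12 from WT_old (adjusted p = 0.693 and 0.179).

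Against all 3 control groups, no release machinery gene was called in either mutant. The calls of the other lists were all higher, namely Lar, Arl8, spin, AP-2alpha and VGAT in C17 and Lar, Srpk79D, spin, EndoA, Dap160, AP-2alpha, VGAT and DAT in PMdr65; Srpk79D, EndoA, Dap160 and VGAT are named after their values were seen. They stand beside 4.37% of all genes higher and 2.27% lower in C17 and 5.87% and 3.18% in PMdr65. VGAT loads GABA into vesicles, EndoA and Dap160 act in vesicle endocytosis, and Srpk79D is a kinase that keeps brp from assembling in axons.

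**Figure D5:**
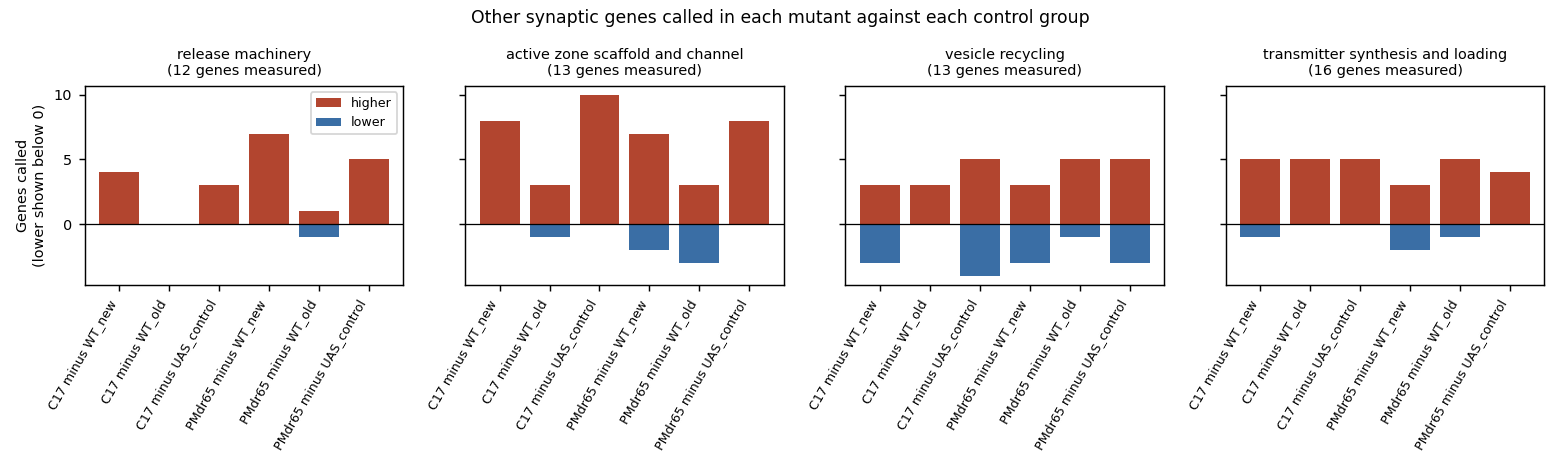
Number of genes of 4 presynaptic lists called higher (above 0) or lower (below 0) at a limma adjusted p under 0.05, for each mutant minus each control group. Active zone scaffold and channel genes had 7 to 10 higher calls against WT_new and UAS_control and 3 against WT_old.

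The genes whose levels over the 17 arrays were most like each member were sought among 8930 others by Pearson's r, which is a description over arrays that share groups and normalization. For Syn they were CG32017 (r = 0.968) and Ssdp (0.961), for Rab3 Acsl (0.959) and Oda (0.929), for Rim 1639490_at CG5026 (0.976) and CG17233 (0.975), and for ChAT DIP-kappa and Pgant2 (both 0.895). For brp 1625489_at they were CG15312 (0.901) and Cadps (0.878), a release factor on the list above, for Snap25 Ank (0.899) and CG33144 (0.866), for nSyb CG1631 and CG1722 (both 0.907), and for cpx 1639609_s_at CG14683 (0.883) and CG11191 (0.881). Among the members themselves, each by its brightest probe set, the closest were Syn and Rim (r = 0.932), then Rab3 and ChAT (0.828), Syn and Snap25 (0.765), Syn and ChAT (0.731) and brp and Snap25 (0.723), and the most opposed were Rim and cpx (-0.765).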

How the data were processed

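The values are log2 probe set signals that the authors deposited after RMA normalization of the arrays together, per the file headers; affy, RMA and limma are named in the submitters' processing notes, with versions not given in the sources used here. Per the labels' protocols, RNA was prepared on Ambion RNAqueous Micro columns and amplified with a NuGEN Ovation FFPE kit, and biotin was added with a NuGEN Encore module. The filtered table held 13290 of 18769 non-control probe sets, and its values matched the unfiltered table to within 0.005; its filter rule is not given in the sources used here. No further normalization was applied. Signals of bright probe sets can be compressed near saturation, which was not tested.

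A model of the 5 group means, with 12 residual and 2.93 prior degrees of freedom, was fitted to the 17 arrays in limma 3.58.1 (R 4.3.3), and 10 contrasts were taken. P-values were adjusted by Benjamini-Hochberg over all probe sets of a contrast, with a threshold of 0.05. Pairs of probe sets were compared by exact permutation of 3 mutant against 11 control arrays, adjusted over all 2295 pairs and both mutants. Other genes were represented by their brightest probe set with 1 symbol (10243 probe sets had 1 symbol, 310 several and 2737 none). Named genes were all member probe sets, moody and Mdr65, up to 4 genes of each list by the lowest adjusted p in the 6 mutant contrasts, and the 2 genes with the highest r to each member. Listed genes not matched by symbol were not analysed here. Members, lists and tests were chosen with earlier results of these data known. On simulated data for C17 minus WT_new with 13290 probe sets, the fit called 43 of 50 probe sets changed by 1 on the log2 scale, 26 of 50 by 0.5 and 7 of 50 by 0.25, and 3 unchanged ones.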

Additional observations from a re-analysis of the deposited data

How the results depend on the processing

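Member results were recomputed on the unfiltered table, without the dimmest 40% of probe sets, with array medians set equal, after quantile normalization, with a prior that was trended and robust, in fits to each comparison's own groups, with a block for the replicate number, and without each array. Added after seeing the data were a fit that dropped WT_new array 3 plus UAS_control array 2, and one of numbers 1 to 3 without a block. No difference of a single probe set that was called changed sign. The 8 calls of PMdr65 minus WT_old became 5 on the unfiltered table and after centring, and 4 with the replicate block or without it on numbers 1 to 3. The 1 call of C17 against all 3 controls (Syn) became 0 on the unfiltered table, after centring, with the replicate block and on numbers 1 to 3 without it; after quantile normalization it was 1, but brp 1629132_at in place of Syn. The 3 calls of PMdr65 became 1 on the unfiltered table, with both arrays left out and with only the groups compared. PMdr65 minus UAS_control fell from 5 to 3 in the last 2 of these settings, UAS_control minus WT_new went from 0 to 1 with the dimmest left out, with the trended prior and without both arrays, and the 2 disagreeing pairs became 0 without both arrays, where 0 of all pairs passed, since fewer splits leave a larger smallest p. Same-numbered arrays did not deviate together (r from -0.47 to 0.41), so the numbers do not pair the arrays, and the block, which uses 15 arrays, also lowers n. Leaving out 1 array gave 2 to 5 calls for C17 minus WT_new, 2 to 6 against WT_old and 4 to 5 against UAS_control. It gave 3 to 6, 3 to 8 and 3 to 5 for PMdr65, 0 to 0 for C17 minus PMdr65, 4 to 6 for WT_old minus WT_new, 0 to 1 for UAS_control minus WT_new and 5 to 8 for UAS_control minus WT_old. Against all 3 controls it gave 0 to 1 in C17, with 0 in 11 of 17 cases, namely without any 1 of C17 arrays 1 to 3, WT_new 3, WT_old 1, 2, 3 or 5, PMdr65 1, or UAS_control 1 or 3, and 0 to 3 in PMdr65, with 0 without PMdr65 array 2. The F test gave 8 to 10, and the disagreeing pairs 0 to 5. The pair count was 0 without a mutant array or WT_new 2, where 0 of all pairs passed. It was above 0 without any other control array, so the pair calls depend on single arrays. The cause of these changes was not tested. In the simulation, 7 of 50 changes of 0.25 were called, but its probe sets were drawn from the whole table and few were changed. The median residual SD of all probe sets was 0.13, against 0.07 for the members. The simulation therefore does not tell how often differences of that size are missed among the members.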
